A study of Caenorhabditis elegans with 24 samples.

Results

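The ubiquitin-conjugating, cullin and Skp1-related genes of the nematode Caenorhabditis elegans were examined in messenger RNA of early embryos. They were taken as all gene probes with WormBase IDs from WBGene00006701 to WBGene00006720 (the ubc range), from WBGene00000836 to WBGene00000841 (the cul range, given for cul-1 to cul-6) and from WBGene00004807 to WBGene00004827 (the skr range). The array held 35 such probes among 15208 gene probes, 1 per gene: 20 in the ubc range, 6 in the cul range and 9 in the skr range. The other IDs of the skr range were not analysed here. Neither the files nor the reference table pairs these IDs with gene names, so each gene is given by its ID and its range, and no role is given to a single ID.

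Ubiquitin is a small protein that is joined to other proteins, often to mark them for destruction by the proteasome. An activating enzyme passes ubiquitin to a conjugating enzyme, the kind of protein encoded by ubc genes, which transfers it to a substrate with the help of a ubiquitin ligase. Cullins are the scaffolds of a large class of ligases, and Skp1-related proteins are adaptors that connect a cullin with the F-box protein that binds the substrate. In the early embryo of this worm, cullin ligases remove maternal proteins at the passage from oocyte to embryo and from cells in which they are not needed. The arrays measured messenger RNA and not protein or ligase activity.

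Each of 24 samples held 50 embryos at the 4-cell stage, whose RNA was amplified, labelled with Cy3 and hybridised to a one-colour array. The samples formed 8 groups of 3. Of these, 4 groups came from N2, the wild-type laboratory strain, and 4 from HC445, whose genotype is labelled sid-1(qt9) with haf-6(-) suspected. Both of these genes are linked to RNA interference. Generation 2 embryos had mothers grown at 20 °C or 25 °C and grandparents grown at 20 °C. Generation 3 embryos had mothers grown at 20 °C, with grandparents grown at either temperature. All worms had been kept at 20 °C beforehand and were fed a Bacillus subtilis strain that cannot form spores. The labels do not tie the samples of a group to separate cultures, and p-values therefore reflect only the spread among these samples.

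Between 9109 and 13075 probes of an array were well above background, and an array's 75th percentile of processed signal lay between 30282 and 45402. Values are log2 of the processed signal relative to that percentile, and they describe 1 probe each, so the level of one gene is not set against that of another. Each of 3 scan days held 1 array of every group, so that a replicate number stands for a scan day. The arrays lay on 14 slides, and the 4 replicate 3 arrays of the 25 °C groups shared 1 slide with no 20 °C array. A note of a 10x spike-in, suspected in 1 case, is given for 6 arrays, among them these 4. The mutated genes of HC445 and the marker genes of the embryo could not be looked up by name, so neither check was made.

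Most of the 35 genes were measured in every sample. A total of 27 were well above background on all 24 arrays: 14 of 20 in the ubc range, all 6 in the cul range and 7 of 9 in the skr range. No member was saturated on any array. Among these 27, 19 varied by less than 1 on the log2 scale over all 24 arrays, and the median range was 0.80. The steadiest was WBGene00006713 of the ubc range, between 2.42 and 2.89, and the most variable was WBGene00006717 of the same range, between -8.69 and -3.17.

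The other 8 members were at the edge of detection. In the ubc range, WBGene00006719 was well above background on 22 arrays, WBGene00006701 on 21, WBGene00006712 on 12, WBGene00006716 and WBGene00006718 on 1 each, and WBGene00006705 on none. In the skr range, WBGene00004811 was well above background on 17 arrays and WBGene00004825 on 8. The chart of detection by group shows that WBGene00004811 was detected on all 3 arrays of both groups of 25 °C mothers, but on 1 and 2 arrays after 20 °C mothers in N2 and HC445. Its signal difference for parental temperature was 0.13 ± 0.62 (SE, log2 scale), with 2 spots set to missing. Testing required a spot well above background on all 3 arrays of some group, which held for 31 members (17 ubc, 6 cul and 8 skr) among 11637 probes. WBGene00006705, WBGene00006716, WBGene00006718 and WBGene00004825 were not tested.

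**Figure D1:**
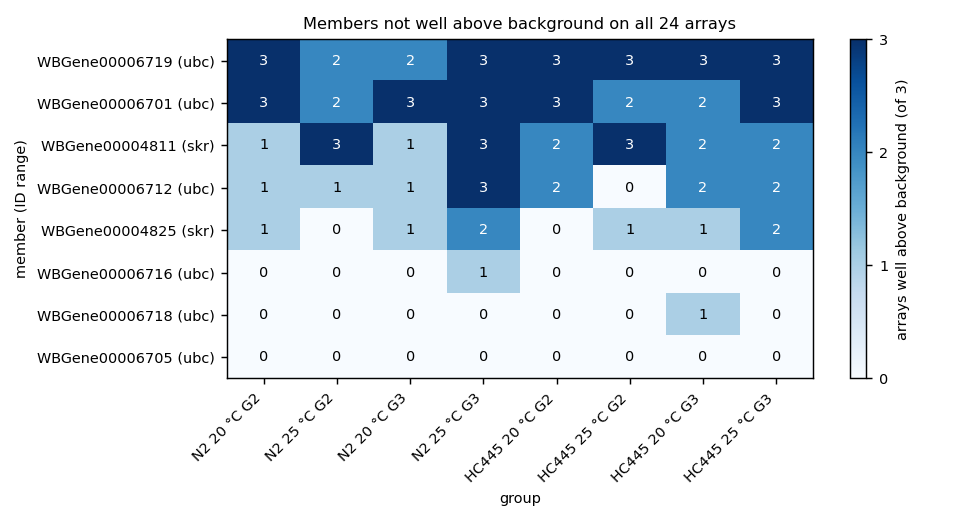
Number of arrays, of 3 per group, on which a member was well above background, for the 8 members that did not reach this on all 24 arrays. Columns are the 8 groups (strain, temperature, and generation as G2 or G3), and darker cells mean more arrays. WBGene00006712 was detected on 0 of 3 arrays of HC445 after 25 °C mothers and on 3 of 3 arrays of N2 with 25 °C grandparents.

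The first comparison asked which of these transcripts differed in embryos of mothers grown at 25 °C in place of 20 °C. One skr range gene was higher and one ubc range gene lower by several fold in both strains, 3 other members passed the pooled test as lower, one of them with most of its arrays not above background, and no cullin passed. With both strains pooled, 5 of the 31 tested members had a limma p under 0.05 after Benjamini-Hochberg adjustment over all tested probes, and 1 of these rose and 4 fell. This was 16.1% of the members, and 14% of all tested probes passed (5.45% rose and 8.52% fell), so the share among the members was near the background. Among the 27 members well above background on all 24 arrays, tested with the other probes of that kind, 4 passed (1 rose, 3 fell). The background there was 1392 of 8391 probes. Blocked by scan day, 7 of 31 passed, with WBGene00004824 (limma adjusted p = 0.0424) and WBGene00006706 (limma adjusted p = 0.0139) added to the 5. In that fit 2666 of all 11637 tested probes passed, so the share among the members was again near the background. By range, 3 of 17 ubc members were called lower, 0 of 6 cul members passed, and of 8 skr members 1 rose and 1 fell. An unadjusted limma p under 0.05 was found for 1 of the 6 cul members, 9 of all 31 members (29.0%) and 27.2% of all tested probes. The median log2 fold change was -0.03 among the members and -0.07 among all tested probes, and the median absolute value was 0.13 and 0.26. As whole embryos were pooled, fewer cells with a transcript and less RNA per cell cannot be told apart.

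**Figure D2:**
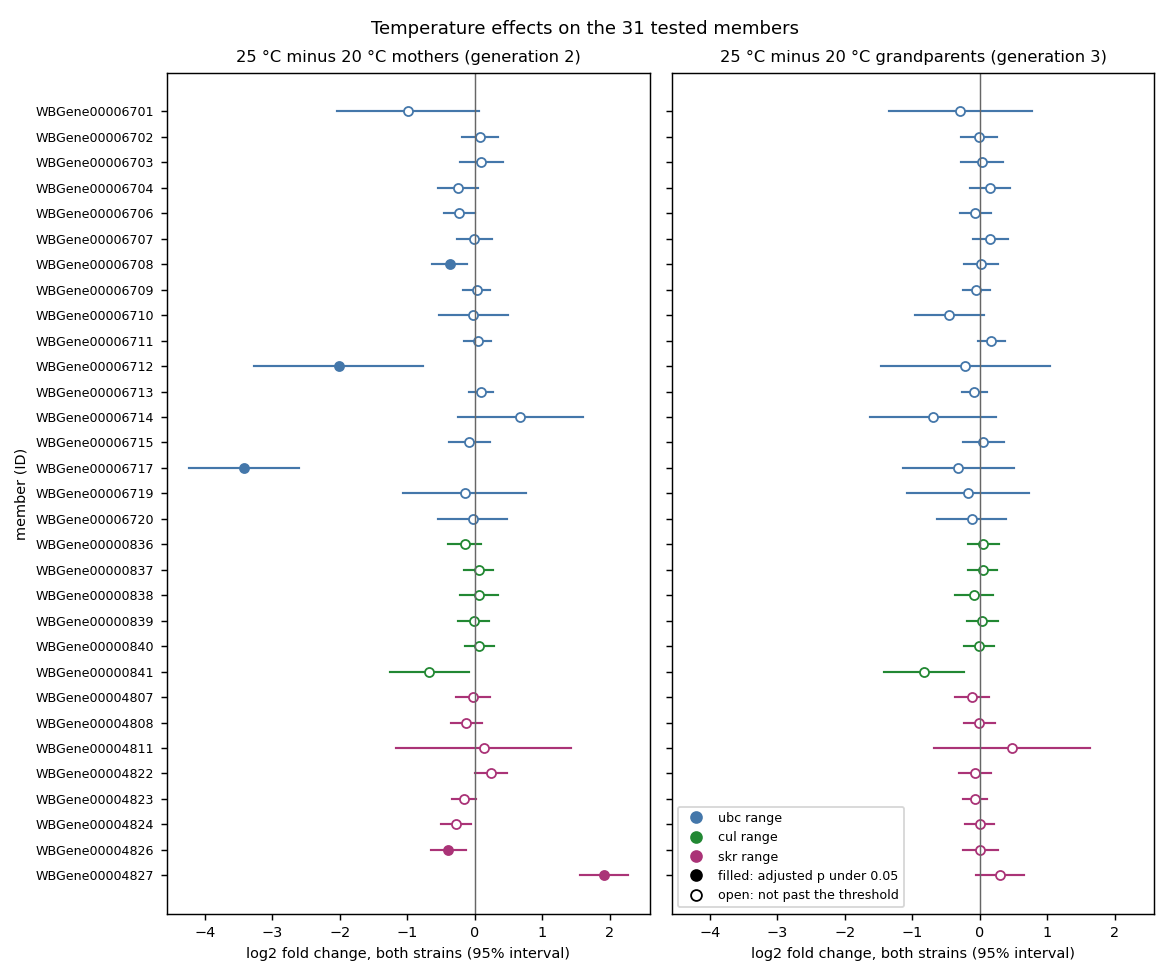
Log2 fold change of each tested member for parental temperature (left, generation 2) and grandparental temperature (right, generation 3), both strains pooled. Points are limma estimates, bars are 95% intervals, colours mark the ID range, and filled points had an adjusted p under 0.05. The 5 filled points are all in the left panel, and most members lie close to 0 in both.

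WBGene00004827 of the skr range rose in embryos of 25 °C mothers. In N2 its log2 signal was -3.52, -4.42 and -4.45 after 20 °C mothers and -2.04, -2.33 and -2.47 after 25 °C mothers. In HC445 it was -4.61, -4.61 and -4.69 after 20 °C mothers and -2.74, -2.87 and -2.41 after 25 °C mothers. Every array of 25 °C mothers was higher than every array of 20 °C mothers, in each strain and across both. The difference was 1.91 ± 0.17 (SE, log2 scale), or 3.75-fold (limma adjusted p = 1.15e-07). It was 1.85 in N2 (limma adjusted p = 5.37e-05) and 1.96 in HC445 (limma adjusted p = 4.53e-05).

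Arrays of the same strain and scan day gave a higher WBGene00004827 signal after 25 °C mothers in 6 of 6 pairs, by 1.48 to 2.28 on the log2 scale. The smallest of these was the N2 pair of replicate 1, the only pair of generation 2 on a shared slide. With a fixed term for each slide, a fit with 3 residual degrees of freedom, the pooled difference was 1.62 and no longer passed (limma adjusted p = 0.102). In that fit N2 alone passed, and HC445 alone did not, at 1.67 (limma adjusted p = 0.601). The pooled difference passed in the other 35 of 36 alternatives, also without the slide of the 25 °C replicate 3 arrays.

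WBGene00006717 of the ubc range fell in embryos of 25 °C mothers. In N2 its log2 signal was -4.04, -4.53 and -3.17 after 20 °C mothers, and -7.31 and -8.69 on the 2 usable arrays after 25 °C mothers, since the spot of replicate 1 was flagged and set to missing. In HC445 it was -5.08, -4.75 and -4.30 after 20 °C mothers and -8.48, -5.94 and -7.95 after 25 °C mothers. Every usable array of 25 °C mothers was lower than every array of 20 °C mothers, and the spot was well above background on all of them. The difference was -3.42 ± 0.39 (SE, log2 scale), or 10.7-fold lower (limma adjusted p = 3.58e-06). This was the largest absolute change for parental temperature among the 31 tested members.

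The fall of WBGene00006717 was -4.09 ± 0.59 (SE, log2 scale; limma adjusted p = 0.00018) in N2 and -2.75 ± 0.52 (limma adjusted p = 0.00265) in HC445. The difference between the strains was 1.34, with a 95% interval from -0.30 to 2.98, and did not pass (limma adjusted p = 1.00). The HC445 array of replicate 2 stood closest to the controls, at -5.94. All 5 usable pairs of a strain and scan day were lower after 25 °C mothers, by a log2 difference between -5.52 and -1.20. The pooled value was -2.82 and did not pass with slide as a fixed block (limma adjusted p = 0.0639), and it passed in the other 35 of 36 alternatives. Without the scan day of replicate 3 neither strain alone passed, at -3.03 in N2 (limma adjusted p = 0.0721) and -2.30 in HC445 (limma adjusted p = 0.0846). HC445 alone also did not pass with slide as a fixed block (-1.96, limma adjusted p = 0.676) or without the arrays noted for spike-in (-2.69, limma adjusted p = 0.0628). N2 alone passed with slide as a fixed block. Over the 12 alternatives other than those without 1 array, the pooled difference lay between -3.48 and -2.45, so its size depended on the processing.

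**Figure D3:**
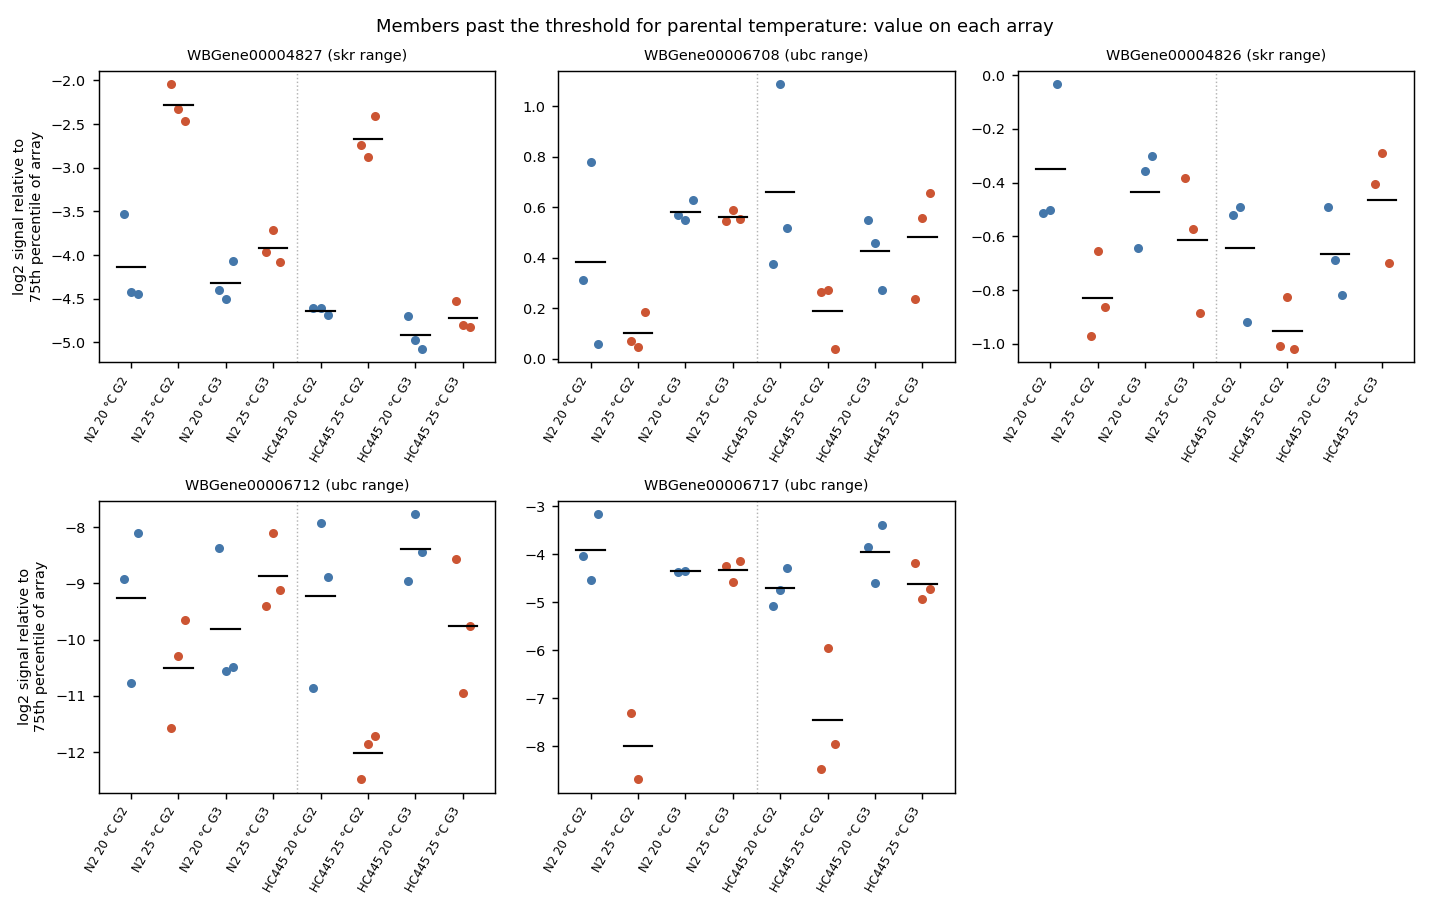
Log2 signal on each array (points), scaled to the array's 75th percentile, in the 8 groups for the 5 members past the threshold for parental temperature. Blue marks ancestors at 20 °C, red ancestors at 25 °C (mothers in G2, grandparents in G3), bars are group means, and each panel has its own axis. WBGene00004827 is high and WBGene00006717 low only in the groups of 25 °C mothers, whereas WBGene00006708, WBGene00004826 and WBGene00006712 overlap between temperatures of the mothers in 1 strain each.

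The other 3 members called lower were close to the threshold. WBGene00004826 of the skr range had log2 signals of -0.51, -0.50 and -0.03 in N2 and -0.52, -0.49 and -0.92 in HC445 after 20 °C mothers. After 25 °C mothers it was -0.97, -0.65 and -0.86 in N2 and -1.01, -0.83 and -1.02 in HC445. The N2 groups did not overlap, and in HC445 one 20 °C array lay among those of 25 °C. The difference was -0.39 ± 0.12 (SE, log2 scale), or 1.31-fold lower (limma adjusted p = 0.0362), and 6 of 6 pairs were lower, by -0.83 to -0.10. It passed in 21 of 36 alternatives and kept its direction in 36.

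WBGene00006708 of the ubc range had log2 signals of 0.31, 0.78 and 0.06 in N2 and 0.37, 1.09 and 0.52 in HC445 after 20 °C mothers. After 25 °C mothers it was 0.07, 0.05 and 0.19 in N2 and 0.26, 0.27 and 0.04 in HC445. The groups overlapped in N2 and not in HC445, and the 20 °C arrays were the more variable, with an SD of 0.37 over 6 arrays against 0.11. The difference was -0.38 ± 0.12 (SE, log2 scale), or 1.30-fold lower (limma adjusted p = 0.0447). It passed in only 11 of 36 alternatives, and among these 6 of the 24 that leave out 1 array.

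WBGene00006712 of the ubc range was dim. It entered the tests only through N2 with 25 °C grandparents, the 1 group in which it was well above background on all 3 arrays. After 20 °C mothers it was well above background on 1 of 3 N2 and 2 of 3 HC445 arrays, and after 25 °C mothers on 1 of 3 and 0 of 3. The pooled test called it lower (limma adjusted p = 0.0273), but most of the values compared were not above background and 1 was tied with many others at the lowest signal of its array, so no size is given for both strains. In HC445 the measured group means were -9.22 after 20 °C mothers and -12.02 after 25 °C mothers on the log2 scale. Neither group was well above background on all 3 arrays, so no size or bound is given for HC445 either. The contrast in HC445 did not pass (limma adjusted p = 0.0624, and 0.0458 when blocked by scan day). The pooled call was kept in 22 of the 35 alternatives that tested the gene.

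The 26 tested members that did not pass for parental temperature had log2 differences between -0.99 and 0.67. For 21 of them the 95% interval lay within 1 on the log2 scale in either direction, and for 18 within 0.5, so that larger changes of these transcripts fall outside the intervals. Among the 14 ubc members not called, the lowest and highest values belonged to WBGene00006701 (-0.99 ± 0.51 SE), at the edge of detection, and WBGene00006714 (0.67 ± 0.45 SE), well above background on all arrays. The parental difference of WBGene00006701 was -1.98 in HC445 and -0.0022 in N2 (difference between the strains -1.98 ± 1.02 SE, limma adjusted p = 1.00). In HC445 it did not pass (limma adjusted p = 0.132, and 0.046 when blocked by scan day), and one HC445 array of 25 °C mothers, replicate 2, gave its lowest value, -10.51. WBGene00006705, WBGene00006716 and WBGene00006718 were above background on no generation 2 array. After 25 °C mothers their HC445 means went from -10.99 to -12.02, -10.61 to -11.75 and -11.22 to -12.25. Their N2 means went from -10.92 to -10.69, -10.87 to -10.89 and -11.19 to -11.35. Whether this shift bears on other dim members was not tested. WBGene00006706 was -0.23 ± 0.11 (SE, log2 scale; limma adjusted p = 0.181, and 0.0139 when blocked by scan day). Among the 6 skr members not called, WBGene00004824 came nearest, at -0.28 ± 0.11 (SE, log2 scale; limma adjusted p = 0.0841, and 0.0424 when blocked by scan day).

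Several other members that did not pass varied little over the arrays. In the skr range, WBGene00004807, WBGene00004808, WBGene00004822, WBGene00004823 and WBGene00004824 each varied by 0.51 to 0.78 on the log2 scale over all 24 arrays, and their parental differences lay between -0.28 and 0.24. Of these, WBGene00004822 passed as a rise with normexp and quantile normalization, where 1620 of all tested probes passed. Its HC445 groups did not overlap in the main values, where its difference did not pass (0.35, limma adjusted p = 0.275). Those of WBGene00006705, WBGene00006716 and WBGene00006718, above background on none of these arrays, did not overlap either. The share of all probes without overlap was not computed. In the ubc range, WBGene00006713 had a parental difference of 0.09 ± 0.09 (SE, log2 scale) and WBGene00006709 one of 0.02 ± 0.10. Wider ranges without a called difference were seen for WBGene00006720 (2.26, parental difference -0.03 ± 0.25), WBGene00006710 (1.44, -0.02 ± 0.24) and WBGene00006715 (1.21, -0.09 ± 0.15).

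Taken strain by strain, 2 of 31 members passed in N2 and 2 of 31 in HC445 (6.45% each). Among all tested probes 5.47% passed in N2 and 5.08% in HC445. The 2 members were WBGene00004827 and WBGene00006717 in both. Blocked by scan day, HC445 had 5 calls, with WBGene00006701, WBGene00006706 and WBGene00006712 added, and 1130 of all 11637 tested probes passed. The strain difference in the parental effect (strain by parental temperature) passed for 0 of 31 members by limma, with 0 at an unadjusted p under 0.05. The background was 0%, with 142 of 11637 probes at an unadjusted p under 0.05. The 95% interval of this difference lay within 1 on the log2 scale for 22 of the 31 members and within 0.5 for 3.

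**Figure D4:**
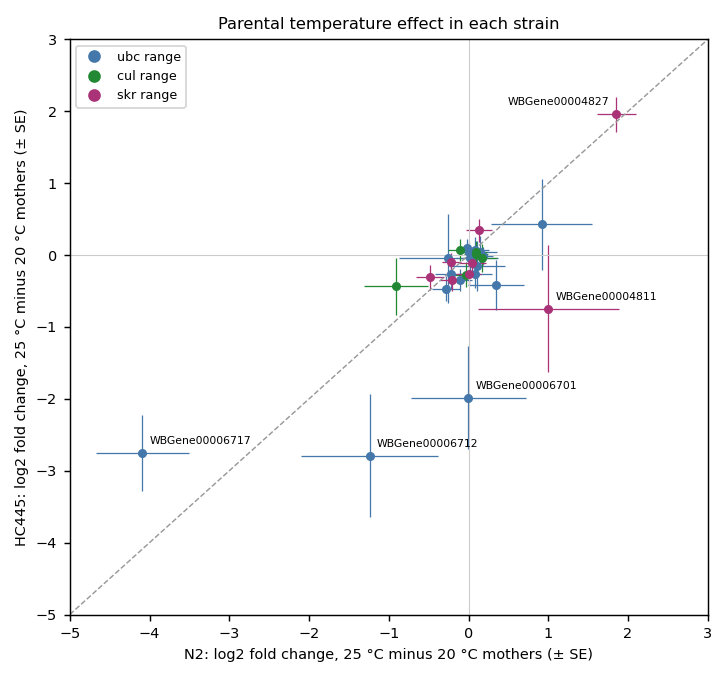
Log2 fold change for parental temperature in N2 (horizontal) and in HC445 (vertical) of the 31 tested members, with bars of 1 SE and the line of equal change dashed. WBGene00004827 lies at 1.85 and 1.96 and WBGene00006717 at -4.09 and -2.75, and most other members lie close to the origin.

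All 6 cullin range genes were well above background on all 24 arrays, and 5 of them varied little. Over all arrays WBGene00000836 lay between -0.33 and 0.42 on the log2 scale, WBGene00000837 between -0.99 and -0.49, and WBGene00000838 between -2.48 and -1.73. WBGene00000839 lay between 0.29 and 0.83, and WBGene00000840 between -0.50 and 0.17. The plot of the cullin values by array shows that the 2 temperature groups of a strain and generation overlapped, with 1 exception. In N2 of generation 3, WBGene00000836 was 0.13, 0.24 and 0.20 with 20 °C grandparents and 0.33, 0.41 and 0.42 with 25 °C grandparents. The arrays of the 2 strains did not overlap in 1 of 4 conditions for each of WBGene00000836, WBGene00000838 and WBGene00000840. The same held for WBGene00006705 and WBGene00006716 of the ubc range, well above background on 0 and 1 of 24 arrays. The share over all probes was not computed.

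The differences of these 5 genes for parental temperature were -0.15 ± 0.12, 0.05 ± 0.10, 0.06 ± 0.14, -0.02 ± 0.11 and 0.07 ± 0.10 (SE, log2 scale) in the order of their IDs. None passed, and the lowest adjusted p by limma was 0.464. Their 95% intervals together spanned -0.40 to 0.35 for parental temperature, -0.37 to 0.28 for grandparental temperature and -0.35 to 0.33 for strain at 20 °C. The value of WBGene00000836 rests on 11 arrays, since 1 HC445 spot was set to missing. With the deposited series values it was -0.46 and did not pass (limma adjusted p = 0.175).

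WBGene00000841 was the exception in the cul range, with values that spanned 3.27 on the log2 scale. In N2 it was -5.11, -6.11 and -4.72 after 20 °C mothers and -6.18, -6.31 and -6.19 after 25 °C mothers. In HC445 it was -7.16, -6.78 and -5.83 after 20 °C mothers and -6.94, -6.53 and -7.61 after 25 °C mothers. The groups did not overlap in N2 and overlapped in HC445. The pooled difference was -0.67 ± 0.28 (SE, log2 scale) and did not pass (limma unadjusted p = 0.0265, adjusted p = 0.123). It passed in 1 of 36 alternatives, without the N2 20 °C array of replicate 2 (-0.87, limma adjusted p = 0.0393).

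In generation 3, WBGene00000841 was -4.92, -5.55 and -5.23 with 20 °C grandparents and -5.90, -5.68 and -5.56 with 25 °C grandparents in N2. In HC445 it was -4.90, -5.32 and -4.35 with 20 °C grandparents and -5.58, -6.08 and -6.42 with 25 °C grandparents. The groups did not overlap in either strain, although the nearest N2 arrays were at -5.55 and -5.56, and all 6 pairs of a strain and scan day were lower with 25 °C grandparents, by -2.08 to -0.13. The difference was -0.83 ± 0.28 (SE, log2 scale) and did not pass (limma unadjusted p = 0.00807, adjusted p = 0.433). With slide as a fixed block it was -0.33. Between the 20 °C groups, with both strains pooled, the same gene was 0.91 ± 0.28 (SE, log2 scale) higher in generation 3 than in generation 2 and did not pass (limma unadjusted p = 0.00416, adjusted p = 1.00). The group means went from -6.59 to -4.85 in HC445 and from -5.31 to -5.24 in N2, so that the pooled value came almost wholly from HC445. Whether the strains differed in this was not tested.

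**Figure D5:**
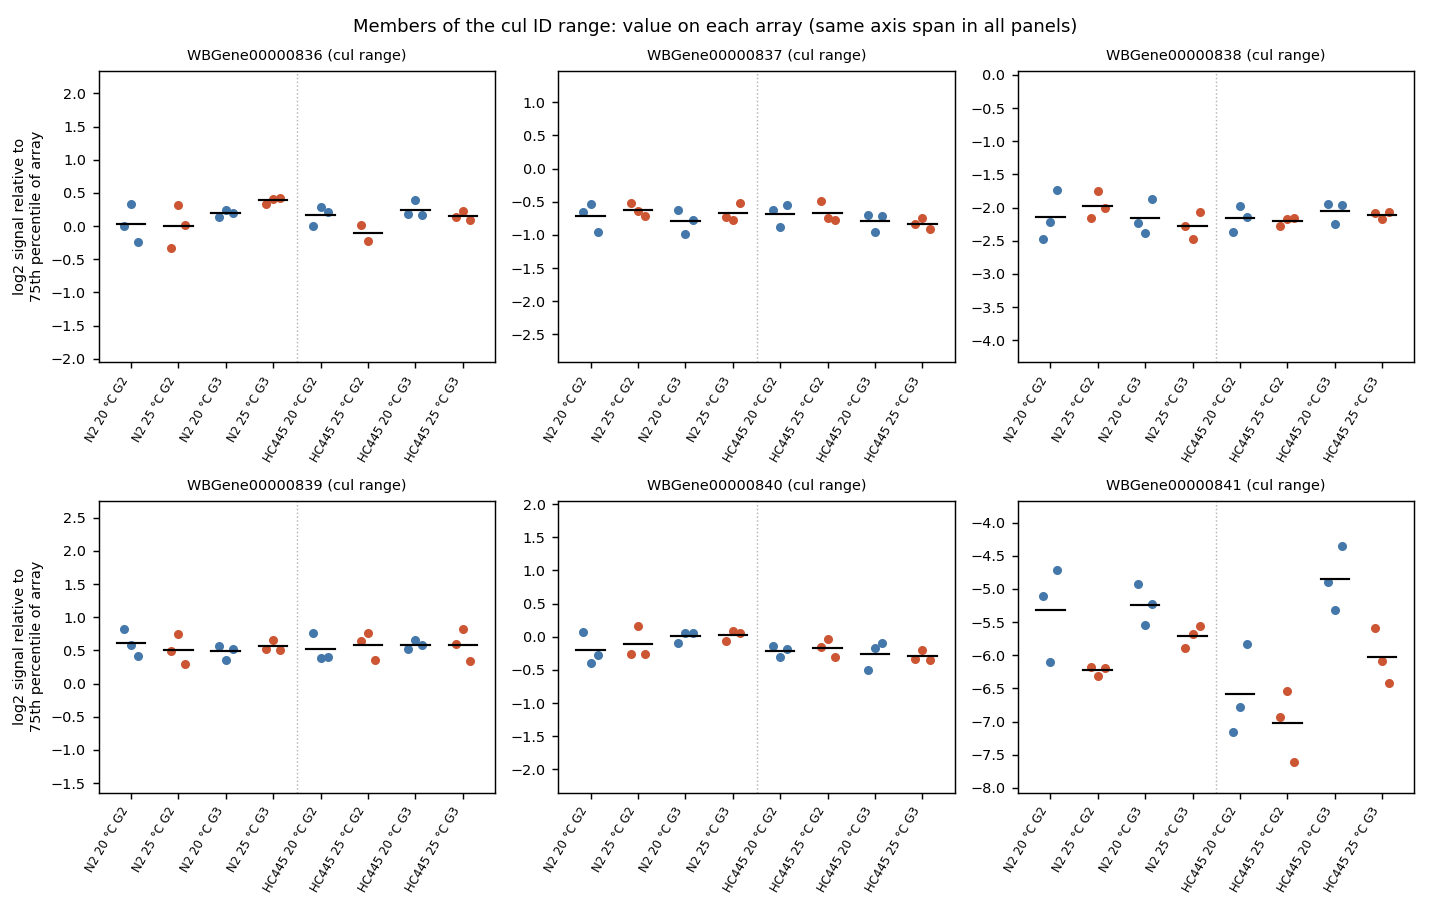
Log2 signal of the 6 cul range genes on each array (points), scaled to the array's 75th percentile, with group means (bars). All panels span the same number of log2 units, blue marks ancestors at 20 °C and red ancestors at 25 °C. WBGene00000841 spreads over 3.27 units, and the other 5 genes over 0.50 to 0.75.

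The second comparison asked whether the transcripts still differed in generation 3, when the mothers had been returned to 20 °C and the grandparents had grown at 25 °C. By limma, 0 of 31 members passed with both strains pooled, where WBGene00000841 alone had an unadjusted p under 0.05, as did 6.34% of all tested probes. The background was 0.284% (33 of 11637 probes). In N2 0 members passed (background 0.112%), and 0 had an unadjusted p under 0.05, against 4.67% of all tested probes. In HC445 0 passed (background 0.0859%), and 1 had an unadjusted p under 0.05, as did 3.62% of all tested probes. The strain difference in the grandparental effect passed for 0 members by limma (background 0%). For it 0 members had an unadjusted p under 0.05, against 2.21% of all tested probes. The members' median log2 difference was -0.01 and their median absolute difference 0.08, against -0.01 and 0.13 for all tested probes. The 95% interval lay within 1 on the log2 scale for 24 of 31 members and within 0.5 for 21.

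The genes with the large parental changes were near their 20 °C level in generation 3. WBGene00004827 was -4.40, -4.50 and -4.07 with 20 °C grandparents and -3.96, -3.71 and -4.07 with 25 °C grandparents in N2. In HC445 it was -4.69, -4.97 and -5.08 against -4.53, -4.80 and -4.82. The groups overlapped in HC445 and touched at -4.07 in N2. The difference was 0.30 ± 0.17 (SE, log2 scale) and did not pass (limma adjusted p = 0.924), and 5 of 6 pairs of a strain and scan day were higher with 25 °C grandparents.

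WBGene00006717 was -4.36 and -4.34 on the 2 usable arrays with 20 °C grandparents and -4.24, -4.59 and -4.15 with 25 °C grandparents in N2, with the spot of replicate 3 set to missing. In HC445 it was -3.86, -4.60 and -3.40 against -4.18, -4.94 and -4.72. The groups overlapped, and the difference was -0.32 ± 0.39 (SE, log2 scale; limma adjusted p = 1.00). The grandparental differences of WBGene00004826 and WBGene00006708 were 0.01 ± 0.12 and 0.02 ± 0.12 (SE, log2 scale).

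The parental effect was then set against the grandparental effect. Their difference passed for 2 of 31 members (6.45%; limma; background 5.30%), and 6 (19.4%) had an unadjusted p under 0.05, as did 16.9% of all tested probes. It was 1.60 ± 0.24 (SE, log2 scale) for WBGene00004827 (limma adjusted p = 0.000259) and -3.10 ± 0.56 for WBGene00006717 (limma adjusted p = 0.00157). WBGene00004827 did not pass with slide as a fixed block (1.39, limma adjusted p = 0.146). WBGene00006717 did not pass without the arrays noted for spike-in (-2.71, limma adjusted p = 0.061) or without the scan day of replicate 3 (-2.47, limma adjusted p = 0.0913).

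The strains were compared at 20 °C in both generations. By limma, 0 of 31 members passed (background 0.112%), and 2 had an unadjusted p under 0.05, as did 5.41% of all tested probes. After 25 °C mothers 0 passed (background 0.0602%), and 0 had an unadjusted p under 0.05, against 2.03% of all tested probes. The 95% interval at 20 °C lay within 1 on the log2 scale for 26 members and within 0.5 for 20. The members with a low unadjusted p were both in the skr range. For WBGene00004827 the difference, HC445 minus N2 at 20 °C, was -0.55 ± 0.17 (SE, log2 scale; limma unadjusted p = 0.00425, adjusted p = 0.545). Its mean was lower in HC445 under all 4 temperature and generation conditions, and the arrays of the strains did not overlap in 3 of them. These conditions include the 20 °C groups of the test itself, so they are not separate support. The mean of WBGene00000840 was also lower in HC445 in all 4. For WBGene00004826 the strain difference was -0.26 ± 0.12 (SE, log2 scale; limma unadjusted p = 0.0454, adjusted p = 0.882).

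As a comparison without a temperature difference, the 20 °C groups of generation 3 were set against those of generation 2. By limma, 0 of 31 members passed, and the background was 0%. An unadjusted p under 0.05 was found for 1 member (WBGene00000841; 3.23%) and for 3.15% of all tested probes. The members' median absolute difference was 0.09, against 0.11 for all tested probes.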

How the data were processed

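The 24 one-colour arrays were scanned by the authors, and per the file headers Agilent Feature Extraction 9.5.3.1 gave a background-subtracted intensity for each spot. Flags of 0 or 1, in the same deposited scanner output, mark saturated spots, non-uniform spots and those well above background. The deposited series table holds log2 values of unstated processing.

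Control spots were left out, and between 3 and 373 spots per array, non-uniform or population outliers, were treated as missing. Values are log2 of the processed signal minus the array's 75th percentile. In R 4.3.3, limma 3.58.1 (lmFit and trended eBayes) fitted 8 group means to 11637 probes, with 1 shared estimate of spread per probe and neither slide nor scan day as a term. Arrays on the same slide were thus treated as independent, although slide as a random block gave a correlation within slides of 0.51. With that block 5 of 31 members passed for parental temperature in both strains, as did 1945 of the 11637 probes. For 12 contrasts, two-sided p-values were adjusted by Benjamini-Hochberg over all of these probes. The script was tested on simulated data. The number of arrays limits the precision.

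Members, lists and tests were chosen with earlier results of these data known. All cul IDs, and ubc and skr IDs past the threshold in a pooled comparison, were described with values, and others were chosen after their values were seen. The lists of pathway genes and markers use gene names, and 0 of the array's IDs were found in the reference table, so neither was applied. The highest correlation between any 2 arrays was 0.99, and no 2 arrays held the same values. Alternatives were normexp (offset 50) with quantile normalization, quantile normalization alone, no filter, a filter for probes detected everywhere, a random or fixed slide block, a replicate block, array weights, the deposited values, and fits without 6 arrays noted for spike-in or without each array in turn. Leaving out the slide of the 25 °C replicate 3 arrays or the scan day of replicate 3 was chosen after seeing the data. Figures were drawn with matplotlib 3.10.9.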

Additional observations from a re-analysis of the deposited data

How the results depend on the processing

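For parental temperature in both strains, the count of 5 members was 2 with quantile normalization, with the deposited values, without the arrays noted for spike-in, without the slide of the 25 °C replicate 3 arrays and without the scan day of replicate 3, each time WBGene00004827 and WBGene00006717. It was 0 with slide as a fixed block, where the cause was not tested beyond the 3 residual degrees of freedom. Leaving out 1 array gave 2 to 5: 2 without replicate 1 of N2 after 25 °C mothers, replicate 2 of HC445 after 20 °C mothers or replicate 1 of HC445 after 25 °C mothers, and 3 without replicate 1 of N2 after 20 °C mothers or replicate 3 of either strain after 25 °C mothers. In N2 alone the count of 2 was 1 without the scan day of replicate 3, and 2 without any 1 array. In HC445 alone the count of 2 was 0 with slide as a fixed block, 4 with array weights, 1 without the arrays noted for spike-in, 1 without the scan day, and 2 to 3 without 1 array. For the parental minus grandparental effect the count of 2 was 1 with slide as a fixed block, 1 without the noted arrays, 1 without the scan day, and 2 to 3 without 1 array. The other 8 comparisons kept a count of 0 under every alternative. Without the noted arrays N2 after 25 °C mothers has 1 array, which is assumed to vary like the other groups.

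With the replicate number as a block the pooled parental count was 7 (adding WBGene00004824 and WBGene00006706) and that in HC445 was 5 (adding WBGene00006701, WBGene00006706 and WBGene00006712). The counts over all tested probes also went up, from 1626 to 2666 pooled and from 591 to 1130 in HC445. The number stands for the scan day. Deviations of same-numbered arrays correlated by -0.07 to 0.29, not all over 0.1, so the block is given as one for scan day and not as a pairing of samples. All 4 tested members that were above background on fewer than 24 arrays had a 95% interval for parental temperature that reached beyond 1 on the log2 scale. A change of more than 1 therefore lay within the interval of each, with 3 arrays per group.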
